A study of Mus musculus with 12 samples.

Results

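Genes for the enzymes, transporters and regulators of glycolysis, glycogen metabolism and the pentose phosphate pathway were followed in RNA-seq of 3T3-L1 adipocytes with less or more Dnmt3a. Members were taken by gene symbol from a fixed list of 47, which gave 44 genes among the 27473 features of the count table. Where a symbol was carried by several features, the one with the highest mean count was used. Eno1, Tpi1 and Slc16a3 were not found under these symbols and were not analysed here.

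3T3-L1 cells are mouse fibroblasts that hormones turn into lipid-laden adipocytes in the dish. Cells of every group were differentiated with dexamethasone, IBMX and insulin, received lentivirus as mature adipocytes on day 8 and were harvested 4 days after transduction. The shDnmt3a group received a hairpin against Dnmt3a and the shScr group a scrambled hairpin, whereas the Dnmt3a group received Dnmt3a and the GFP group GFP, both in the pCDH expression vector. There were 3 libraries in each of the 4 groups. The sources used here do not name the hairpin. The series describes triplicates as biological, but no source says that they were grown as separate cultures, and the p-values cover only how much these libraries varied, which may be technical variation. In bulk RNA, fewer cells of a type and less RNA per cell cannot be told apart.

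In glycolysis, glucose enters the cell through a transporter, is phosphorylated by a hexokinase and is then broken down stepwise to pyruvate. Pyruvate either becomes lactate, through lactate dehydrogenase, or enters mitochondria through pyruvate dehydrogenase, which the pyruvate dehydrogenase kinases switch off. Glucose phosphate can also be stored as glycogen or enter the pentose phosphate pathway, which yields the NADPH that adipocytes use to make fatty acids, and many genes of glycolysis are known targets of the hypoxia-inducible factor HIF-1, which binds the letters ACGTG or GCGTG.

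The deposited values were whole-number counts, with 29084732 to 47341091 counts per library. Levels are given as CPM, the usual scaling of a count to its library's total, here with TMM factors. Differences were tested on the counts (edgeR, quasi-likelihood, Benjamini-Hochberg adjustment over all genes tested), and calls were made where the adjusted p was under 0.05. Dnmt3a itself had 39.4 to 41.0 CPM in shDnmt3a libraries, against 78.5 to 86.3 CPM in shScr libraries, and 2730 to 2776 CPM in Dnmt3a libraries, against 90.7 to 96.6 CPM in GFP libraries. Reads of the Dnmt3a transgene and of the cells' own gene were not separated. The adipocyte markers Adipoq and Fabp4 had at least 1686 and 3789 CPM in each library. Of the macrophage and leukocyte markers, Emr1 had no count in any library and the list summed to at most 31.8 CPM. Of the skeletal muscle markers, Myod1 had no count and 5 of 8 stayed under 1 CPM.

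Promoters are shown for genes on which the results turn: the largest or most certain changes on knock-down in glucose entry, lower glycolysis, lactate and glycogen, and Ldhb, which went the other way. Each is the 250 bases before the annotated start (RefSeq, GRCm38.p6), written 5′ to 3′ along the gene, and capitals mark ACGTG and GCGTG on either strand (CACGT and CACGC when read from the opposite strand).
Slc2a1, chr4:119108495-119108744, plus strand: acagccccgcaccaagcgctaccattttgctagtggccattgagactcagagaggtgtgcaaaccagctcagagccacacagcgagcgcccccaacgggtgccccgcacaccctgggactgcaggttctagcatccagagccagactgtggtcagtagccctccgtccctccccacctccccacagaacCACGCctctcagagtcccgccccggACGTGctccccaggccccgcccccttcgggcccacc
Pgk1, chrX:106186850-106187099, plus strand: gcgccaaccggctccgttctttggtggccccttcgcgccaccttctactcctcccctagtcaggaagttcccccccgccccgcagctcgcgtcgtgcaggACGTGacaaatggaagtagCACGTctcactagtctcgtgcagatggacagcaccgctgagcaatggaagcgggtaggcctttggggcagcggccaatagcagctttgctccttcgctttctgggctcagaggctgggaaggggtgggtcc
Eno2, chr6:124769674-124769923, minus strand: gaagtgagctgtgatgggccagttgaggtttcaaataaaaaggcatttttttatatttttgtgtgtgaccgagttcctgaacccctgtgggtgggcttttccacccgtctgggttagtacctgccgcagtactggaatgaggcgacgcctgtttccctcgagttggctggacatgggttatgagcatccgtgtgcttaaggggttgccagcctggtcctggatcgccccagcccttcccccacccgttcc
Ldha, chr7:46845554-46845803, plus strand: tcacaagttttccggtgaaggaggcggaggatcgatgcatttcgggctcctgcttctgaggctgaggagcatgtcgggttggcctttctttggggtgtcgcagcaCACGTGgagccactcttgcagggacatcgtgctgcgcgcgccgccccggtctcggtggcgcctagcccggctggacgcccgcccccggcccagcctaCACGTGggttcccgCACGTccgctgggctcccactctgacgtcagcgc
Ppp1r3c, chr19:36736605-36736854, minus strand: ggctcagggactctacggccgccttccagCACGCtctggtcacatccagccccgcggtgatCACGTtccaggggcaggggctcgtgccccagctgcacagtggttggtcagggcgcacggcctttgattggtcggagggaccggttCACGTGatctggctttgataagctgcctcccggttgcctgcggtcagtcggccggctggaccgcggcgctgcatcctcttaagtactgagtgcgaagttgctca
Ldhb, chr6:142507958-142508207, minus strand: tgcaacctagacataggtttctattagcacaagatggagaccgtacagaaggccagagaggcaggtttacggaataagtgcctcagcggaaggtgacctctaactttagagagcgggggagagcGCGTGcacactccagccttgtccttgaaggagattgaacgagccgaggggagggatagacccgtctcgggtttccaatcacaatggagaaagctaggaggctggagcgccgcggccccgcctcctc
The Ldha window shown held 5 matches, of which 4 lay in the 2 copies of the palindrome CACGTG, which matches on both strands. Another annotated window of Ldha, not shown, held 1 match and no CACGTG. The Ppp1r3c window held 4, of which 2 lay in its 1 copy of CACGTG. The Pgk1 window held 2, at 150 and 131 bases before the start. The Slc2a1 window held 2, that of Ldhb held 1, and the Eno2 window held none, while Eno2 had the largest fold change on knock-down. In mm9, the build of the counts, the genes span Slc2a1 at chr4:118781316-118809935 (plus strand), Pgk1 at chrX:103382439-103399038 (plus strand), Eno2 at chr6:124710071-124719691 (minus strand), Ldha at chr7:54096845-54110997 (plus strand), Ppp1r3c at chr19:36806227-36811143 (minus strand) and Ldhb at chr6:142438769-142456477 (minus strand).

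Over the 42 members with a RefSeq promoter, which had 61 windows between them, 75.4% of windows held ACGTG or GCGTG, against 38.6% of all 32851 windows and 65.3% of the 11153 windows with a CpG observed to expected ratio of at least 0.6. By call on knock-down, 66.7% of the 36 windows of members that were higher held either motif, against 90.9% of the 11 windows of members that were lower and 85.7% of the 14 windows of members not called. Genes with several windows weigh more in these percentages. By gene, 21 of 25 members that were higher had a match in at least 1 window, as did 8 of 8 lower and 9 of 9 not called. Since nearly all members had a match, these counts can hardly separate the calls, and a part of the motifs in the changes was not tested. The median number of CpG dinucleotides per window was 13.5 for members that were higher, 14 for those lower, 10 for those not called and 6 over all windows. A match is a description of the letters, not of binding, and several windows of 1 gene can overlap.

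With less Dnmt3a, mRNA levels were higher along most of glycolysis and glycogen synthesis. Of the 44 members, all of which passed the filter on low counts, 26 were higher and 8 lower in shDnmt3a libraries than in shScr libraries, where 23.3% of the 14115 genes tested were higher and 22.5% lower. The median log2 fold change was 0.385 over the members and -0.000268 over all genes tested. A log2 fold change of at least 1 was reached by 13 members, against 2.8% of all genes, and no member fell by as much. Together the 44 genes took 2.17 to 2.24% of all counts in shDnmt3a libraries, against 1.33 to 1.36% in shScr libraries, so the groups did not overlap.

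**Figure D1:**
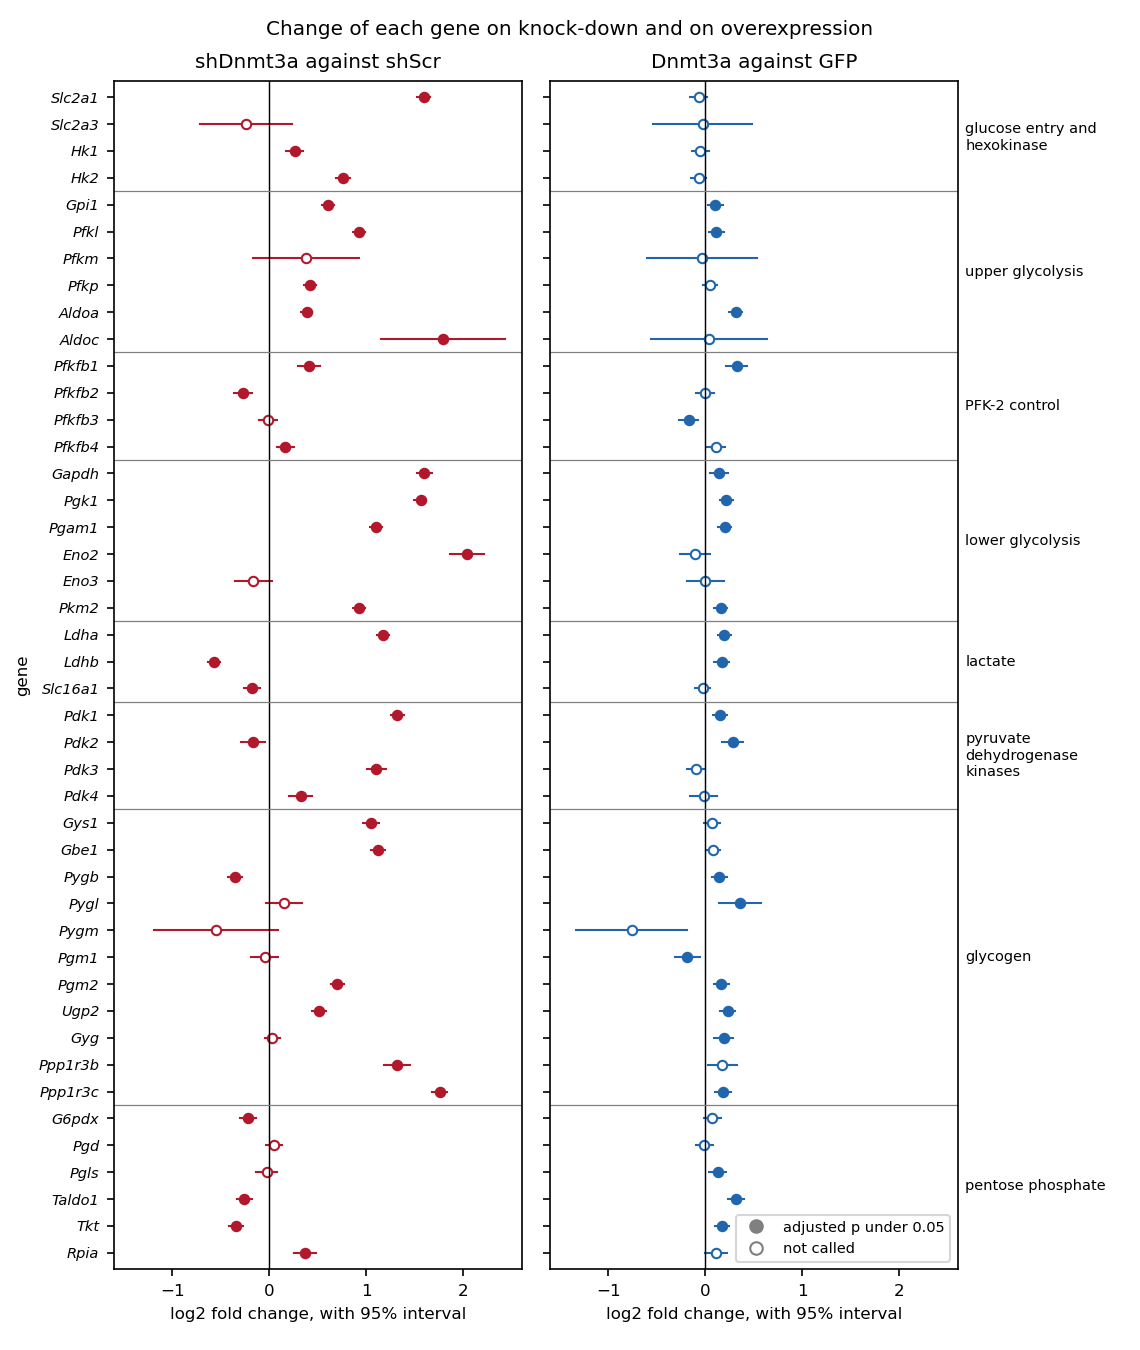
Log2 fold changes of the 44 genes (points) with approximate 95% intervals (lines). The left panel is shDnmt3a against shScr and the right panel Dnmt3a against GFP. The intervals assume a normal distribution and can be narrower than those of the test. Filled points passed an adjusted p under 0.05. On knock-down 26 genes were higher and 8 lower, and on overexpression 21 were higher and 2 lower, all by less than 1 on the log2 scale.

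At the entry of glucose, 3 of 4 members rose on knock-down. Slc2a1, which encodes the GLUT1 transporter, had 206, 206 and 206 CPM in shDnmt3a libraries, against 68.1, 68.5 and 68.5 CPM in shScr libraries. The groups lay far apart and hardly varied within themselves, and the log2 fold change was 1.59 (standard error 0.035, adjusted p = 1.55e-17, edgeR quasi-likelihood, Benjamini-Hochberg adjusted). Hk2, the hexokinase of insulin-responsive tissues, had 485, 490 and 467 CPM in shDnmt3a libraries, against 279, 297 and 277 CPM in shScr libraries. Hk1, the more widely expressed hexokinase, had 144, 139 and 133 CPM, against 108, 120 and 120 CPM. Both hexokinases were higher in each shDnmt3a library than in each shScr library, Hk2 by a log2 of 0.76 and Hk1 by 0.26. Slc2a3, which encodes the GLUT3 transporter, stayed at or under 1.31 CPM in every library and was not called in either comparison.

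In the upper steps, from glucose phosphate to the split into trioses, 5 of 6 members rose. Pfkl, the liver-type subunit of phosphofructokinase, had 847, 876 and 864 CPM in shDnmt3a libraries, against 448, 454 and 462 CPM in shScr libraries (log2 fold change 0.92, standard error 0.032). Gpi1, glucose phosphate isomerase, had 831, 843 and 818 CPM, against 538, 558 and 542 CPM, and Aldoa, the main aldolase, had 3102, 3195 and 3102 CPM, against 2380, 2384 and 2422 CPM. None of these groups overlapped, and the log2 fold changes were 0.60 for Gpi1 and 0.39 for Aldoa. Pfkp, the platelet-type subunit, was higher by 0.42, at 602 to 622 CPM, against 453 to 465 CPM. Aldoc, another aldolase, had a log2 fold change of 1.79 but at most 0.987 CPM in any library, and Pfkm, the muscle-type subunit, stayed at or under 1.18 CPM and was not called.

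PFK-2 enzymes, which set the level of the activator fructose 2,6-bisphosphate, did not move together. Pfkfb1 had 35.6, 34.3 and 36.9 CPM in shDnmt3a libraries, against 27.9, 24.8 and 27.8 CPM in shScr libraries (log2 fold change 0.41), and Pfkfb4 had 58.2, 55.1 and 57.2 CPM, against 51.9, 49.8 and 50.2 CPM (0.17). Pfkfb2 went the other way, with 50.1, 45.2 and 46.8 CPM, against 55.4, 57.8 and 58.3 CPM (-0.27, standard error 0.048, adjusted p = 0.000109, same edgeR test). Pfkfb3, the isozyme best known from proliferating and hypoxic cells, overlapped between the groups and was not called. A further Pfkfb2 feature, not used here, had 25.7% of the counts of the one used.

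The lower steps, which return ATP, held the largest changes: 5 of 6 members rose, with a median log2 fold change of 1.33. Pgk1, phosphoglycerate kinase, had 2626, 2643 and 2698 CPM in shDnmt3a libraries, against 916, 865 and 925 CPM in shScr libraries (log2 fold change 1.56, standard error 0.033, adjusted p = 8.27e-18, same edgeR test). Gapdh, glyceraldehyde phosphate dehydrogenase, had 174, 176 and 164 CPM, against 55.9, 59.5 and 54.1 CPM (1.60). Pgam1, phosphoglycerate mutase, had 1816, 1860 and 1839 CPM, against 861, 841 and 874 CPM (1.10). For each of them the lowest shDnmt3a library lay above the highest shScr library. Pkm2, the pyruvate kinase gene of most tissues that RefSeq names Pkm, was higher by 0.92, at 3002 to 3197 CPM in shDnmt3a libraries, against 1626 to 1644 CPM in shScr libraries.

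Eno2, the enolase first described in neurons, had the largest log2 fold change of all members, 2.03 (standard error 0.088, adjusted p = 4.73e-13, same edgeR test), at 17.9 to 21.2 CPM in shDnmt3a libraries, against 4.67 to 5.05 CPM in shScr libraries. Eno3, the muscle enolase, was not called. The 2 features of the symbol Gm5506, a near-identical copy of the main enolase gene that RefSeq names Eno1b, were looked at after the values of the members were seen. They had log2 fold changes of 1.28 and 1.32, at 646 to 718 CPM and 456 to 480 CPM in shDnmt3a libraries, against 259 to 302 CPM and 181 to 194 CPM in shScr libraries. Reads of Gapdh, Pgk1, Pgam1, Ldha, Aldoa and the enolases can be shared with pseudogenes or paralogs, so their levels are less certain than their neighbours'. With all features of the symbol Gapdh summed, its log2 fold change was 1.57 and stayed called.

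At the lactate branch the changes had both signs. Ldha, the subunit of lactate dehydrogenase that prevails in muscle, had 2765, 2825 and 2826 CPM in shDnmt3a libraries, against 1264, 1215 and 1253 CPM in shScr libraries (log2 fold change 1.17, standard error 0.03, adjusted p = 1.54e-16, same edgeR test). Ldhb, the subunit that prevails in heart, had 259, 260 and 263 CPM, against 388, 386 and 389 CPM (-0.57, standard error 0.032, adjusted p = 2.65e-11). Slc16a1, which encodes the MCT1 lactate carrier, had 267, 263 and 279 CPM, against 326, 290 and 297 CPM (-0.17). The groups did not overlap for any of these, so against shScr 1 subunit of the enzyme was higher while the other was lower. Against GFP, the other control, all 3 genes were higher in shDnmt3a libraries, Ldha by a log2 of 0.40, Ldhb by 0.46 and Slc16a1 by 0.40, so the direction of Ldhb and Slc16a1 turned with the control.

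Of the pyruvate dehydrogenase kinases, 3 rose. Pdk1 had 575, 599 and 606 CPM in shDnmt3a libraries, against 244, 231 and 239 CPM in shScr libraries (log2 fold change 1.32, standard error 0.035, adjusted p = 2.86e-16, same edgeR test). Pdk3 had 58.0, 55.1 and 59.6 CPM, against 26.4, 26.4 and 27.5 CPM (1.10), and Pdk4, the isozyme induced by fasting, had 24.8, 25.9 and 27.2 CPM, against 20.2, 21.2 and 20.9 CPM (0.32). These groups did not overlap. Pdk2 had 39.7, 36.2 and 33.0 CPM in shDnmt3a libraries, against 38.1, 43.4 and 40.9 CPM in shScr libraries, and its groups overlapped. Its log2 fold change of -0.17 passed the test (adjusted p = 0.0354, same edgeR test), but not without shScr replicate 2 (adjusted p = 0.167) or 3 (0.0831), or without shDnmt3a replicate 2 (0.0894) or 3 (0.192).

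Among the 11 genes of glycogen metabolism, 6 rose and 1 fell. The highest change was that of Ppp1r3c, which encodes a scaffold that brings protein phosphatase 1 to glycogen: 234, 243 and 249 CPM in shDnmt3a libraries, against 74.0, 70.3 and 71.1 CPM in shScr libraries (log2 fold change 1.75, standard error 0.039, adjusted p = 1.56e-17, same edgeR test). Gys1, the glycogen synthase of muscle and fat, had 371, 350 and 342 CPM, against 167, 179 and 168 CPM (1.05). Gbe1, the branching enzyme, had 325, 337 and 338 CPM, against 160.5, 150 and 150.2 CPM (1.12). The groups were separate for these genes, which act in the synthesis of glycogen. Ppp1r3b, a related scaffold, had 21.4 to 23.6 CPM in shDnmt3a libraries, against 8.90 to 9.14 CPM in shScr libraries (1.31). Pgm2, a phosphoglucomutase that current RefSeq names Pgm1, had 541 to 558 CPM, against 333 to 348 CPM (0.70). Ugp2, which makes the UDP-glucose that glycogen synthase uses, had 460 to 499 CPM, against 325 to 346 CPM (0.51). These groups did not overlap either.

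Pygb, the brain-type glycogen phosphorylase, made up 96.9% of the phosphorylases' summed level per kilobase in shDnmt3a libraries, against 97.7% in shScr libraries. It fell, with 339, 337 and 346 CPM in shDnmt3a libraries, against 447, 416 and 443 CPM in shScr libraries (log2 fold change -0.35, standard error 0.035, adjusted p = 8.83e-08, same edgeR test). Pygl and Pygm, the liver and muscle phosphorylases, Gyg, the primer protein of glycogen, and Pgm1 were not called. Pygl had 6.93 to 8.22 CPM in shDnmt3a libraries, against 6.80 to 7.13 CPM in shScr libraries, and Gyg had 68.8 to 70.5 CPM, against 66.5 to 69.4 CPM. By their textbook roles, Gys1, Gbe1 and Ugp2 belong to synthesis, phosphoglucomutase serves both synthesis and breakdown, and Pygb breaks glycogen down. The fall of Pygb was seen against shScr only: in shDnmt3a against GFP its log2 fold change was 0.03, which was not called.

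In the pentose phosphate pathway 3 of 6 members were lower on knock-down and 1 was higher. Tkt, transketolase, had 519, 531 and 528 CPM in shDnmt3a libraries, against 652, 642 and 710 CPM in shScr libraries (log2 fold change -0.35, standard error 0.037, adjusted p = 2.92e-07, same edgeR test). Taldo1, transaldolase, had 215, 220 and 226 CPM, against 260, 251 and 280 CPM (-0.26), and G6pdx, the first enzyme of the pathway, had 114, 118 and 118 CPM, against 137, 142 and 129 CPM (-0.22). Rpia, ribose phosphate isomerase, was the member that rose, with 35.1, 36.6 and 38.2 CPM, against 26.3, 29.9 and 29 CPM (0.37). None of these 4 overlapped between the groups, and Pgd and Pgls, which follow G6pdx, were not called. Pgd had 175 to 188 CPM in shDnmt3a libraries, against 164 to 184 CPM in shScr libraries (log2 fold change 0.05, standard error 0.043). Against GFP, the other control, Tkt was higher in shDnmt3a libraries by a log2 of 0.16 and Taldo1, at 0.09, was not called. In that comparison G6pdx was lower (-0.12) and Rpia higher (0.45).

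**Figure D2:**
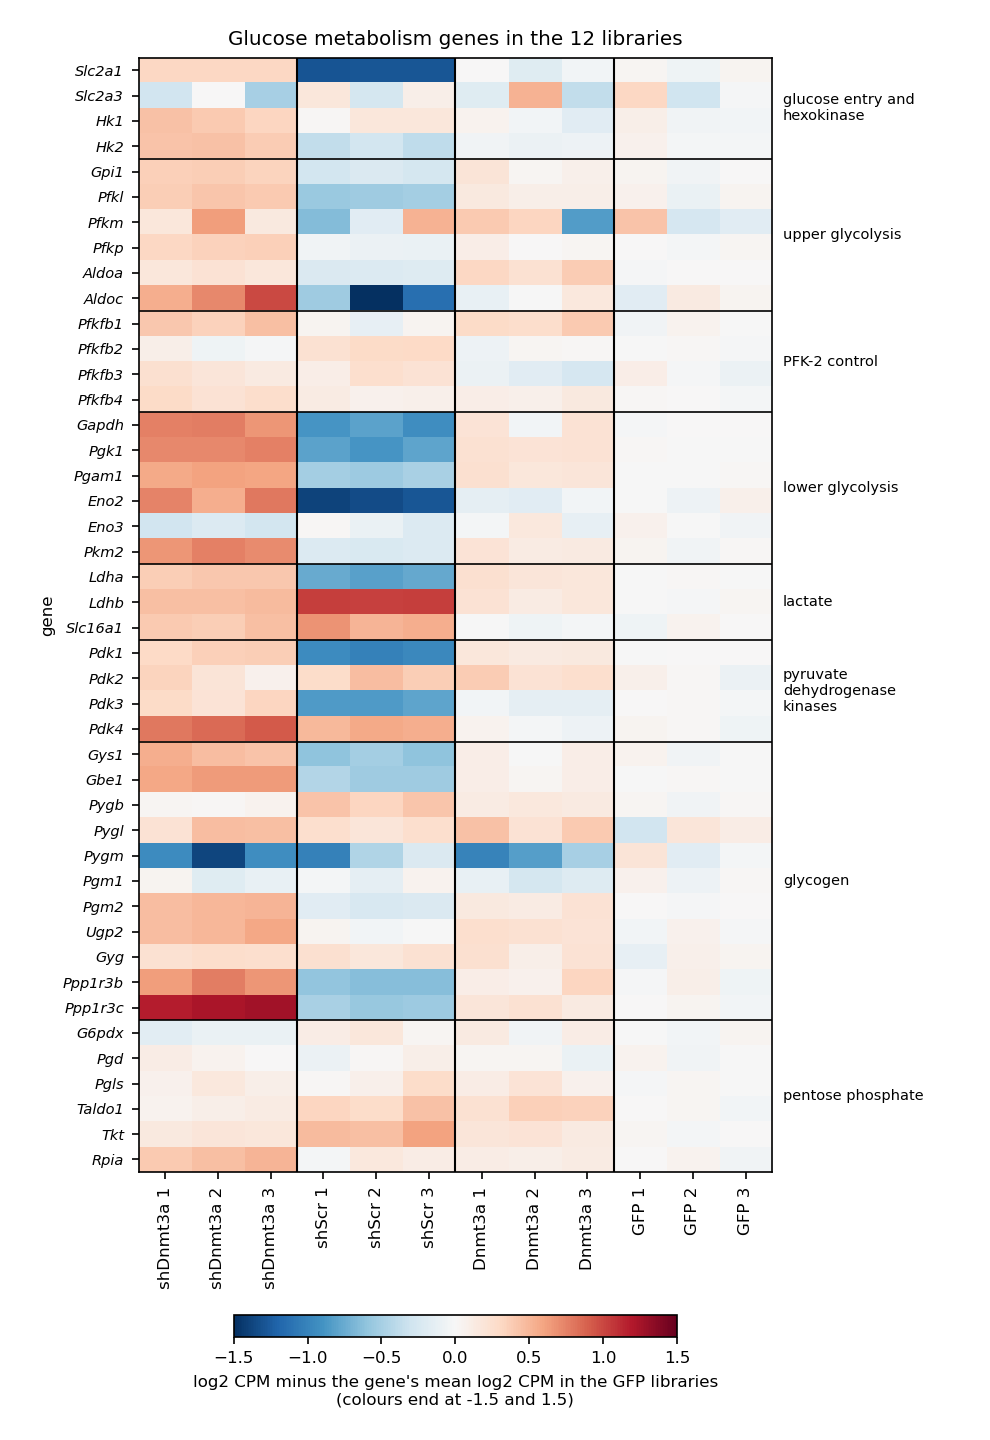
Level of each of the 44 genes (rows, by role) in each library (columns), as log2 CPM minus the gene's mean log2 CPM in the GFP libraries; red is higher and blue lower than GFP. For 19 of the 44 genes the shDnmt3a libraries were above all others and the shScr libraries below all others.

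The scrambled hairpin and the GFP vector are both controls, but they did not stand at the same level. In 1 fit of all 12 libraries, 13 members were higher and 19 lower in shScr libraries than in GFP libraries, where 23.7% of the 14491 genes tested were higher and 22.8% lower. The vector, the hairpin and anything else that differs between these controls cannot be told apart. Slc2a1 had 159 to 171 CPM in GFP libraries and thus lay above shScr (log2 fold change of shScr against GFP -1.28, adjusted p = 3.41e-20, edgeR's quasi-likelihood test), and the values for Eno2 and Pdk1 were -1.33 and -0.97. Ldhb was higher in shScr than in GFP by a log2 of 1.04, Slc16a1 by 0.58 and Tkt by 0.52.

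shDnmt3a was also set against GFP in the same fit, a comparison added with earlier results of these data known, which shares its libraries with the others. In it 33 members were higher and 3 lower, where 23.6% of genes tested were higher and 22.8% lower. The count of 3, which are Eno3, Pygm and G6pdx, was 1 without GFP replicate 1 or without shDnmt3a replicate 1. All 26 members that were higher against shScr were also higher against GFP, by a median log2 of 0.462 and at most 1.22, which was the value of Ppp1r3c. Of the same 26, 19 were lower and 2 higher in shScr than in GFP, with a median of -0.499. Of the 8 members that were lower against shScr, all 8 were higher in shScr than in GFP, whereas in shDnmt3a 4 of them (Ldhb, Slc16a1, Pdk2 and Tkt) were higher than in GFP, 1 (G6pdx) was lower and 3 (Pfkfb2, Pygb and Taldo1) were not called.

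Many members had the same order of groups. For 22 of 44 the mean was highest in shDnmt3a and lowest in shScr, and for 19 of these no library of either group came among the others, against 2.26% of the 14491 genes tested. Pgk1 shows the pattern, with a mean of 2656 ± 37.4 CPM in shDnmt3a, 902 ± 32.3 CPM in shScr, 1854 ± 13.8 CPM in Dnmt3a and 1599 ± 16.1 CPM in GFP libraries (SD, n = 3 each). For Slc2a1 the log2 difference was 0.31 between shDnmt3a and GFP, against 1.59 between shDnmt3a and shScr, and for Ldha these values were 0.40 and 1.17.

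**Figure D3:**
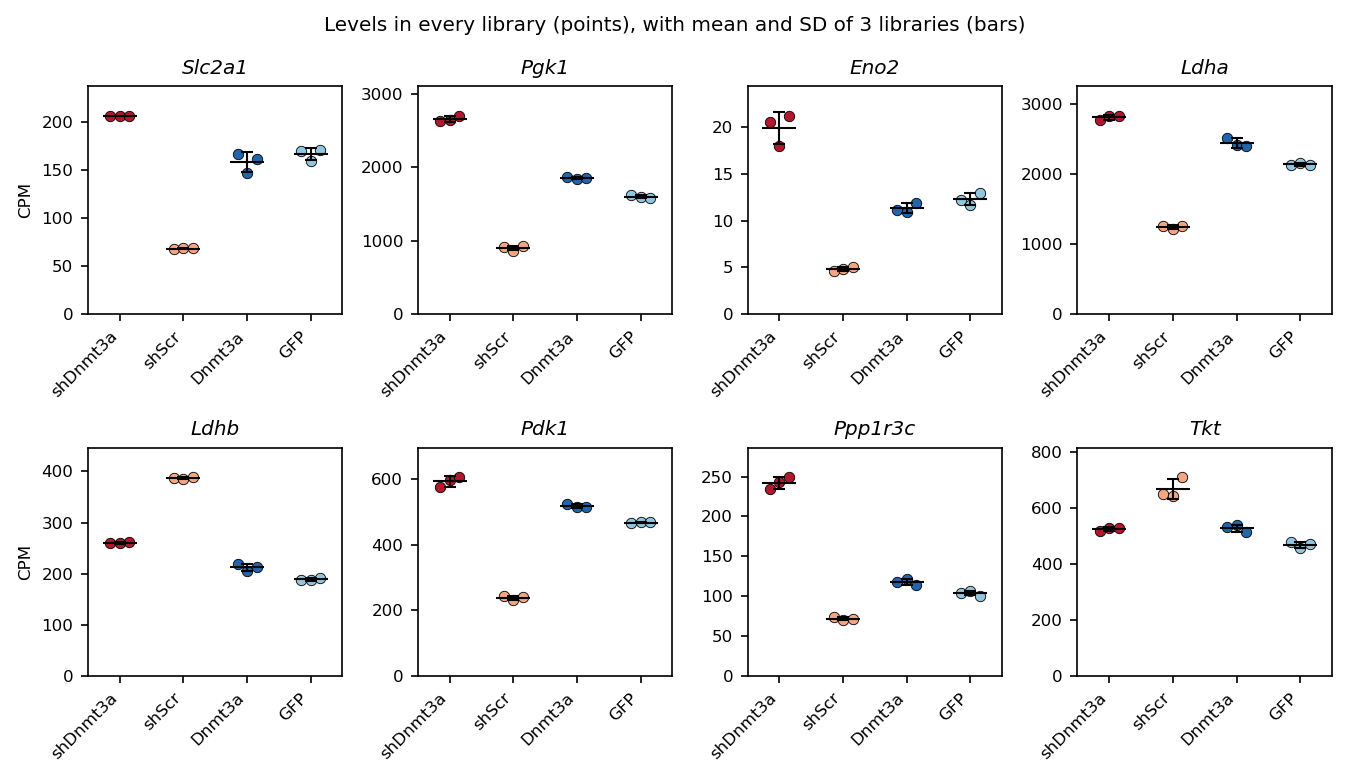
CPM of 8 genes in every library (points), with the mean and SD of each group (bars). Slc2a1, Pgk1, Eno2, Ldha, Pdk1 and Ppp1r3c were highest in shDnmt3a and lowest in shScr libraries, and Ldhb and Tkt were highest in shScr libraries.

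Summed by role, the CPM of the genes of lower glycolysis were 7644 to 7900 in shDnmt3a, 3402 to 3506 in shScr, 5396 to 5646 in Dnmt3a and 4764 to 4907 in GFP libraries. Those of the pyruvate dehydrogenase kinases were 697 to 726 in shDnmt3a, 322 to 328 in shScr, 609 to 626 in Dnmt3a and 558 to 564 in GFP libraries. Those of glycogen metabolism were 2390 to 2452 in shDnmt3a, 1575 to 1648 in shScr, 1889 to 1938 in Dnmt3a and 1734 to 1741 in GFP libraries. In each of these roles the order was shDnmt3a, Dnmt3a, GFP and shScr from high to low, with no overlap of groups. The lactate genes had this order too. In upper glycolysis the shDnmt3a libraries, at 5383 to 5531 CPM, overlapped with the Dnmt3a libraries, at 5084 to 5478 CPM. For PFK-2 control the shDnmt3a libraries, at 197 to 209 CPM, overlapped with the shScr libraries, at 194 to 201 CPM, and the Dnmt3a and GFP libraries lay lower. Glucose entry had another order, since the Dnmt3a libraries, at 591 to 624 CPM, overlapped with the GFP libraries, at 615 to 659 CPM. The pentose phosphate genes were highest in shScr, at 1300 to 1405 CPM, against 1133 to 1152 CPM in shDnmt3a libraries, and they had 1170 to 1202 CPM in Dnmt3a libraries, against 1050 to 1080 CPM in GFP libraries. Within a role the most abundant genes set the sum.

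Overexpression of Dnmt3a was accompanied by smaller changes, most of them upward. In Dnmt3a libraries 21 members were higher and 2 lower than in GFP libraries, where 14.3% of the 14168 genes tested were higher and 12.9% lower, and 21 were not called. The median log2 fold change was 0.111 over the members and -0.00663 over all genes, and no member changed by 1 or more. The members took 1.73 to 1.77% of all counts in Dnmt3a libraries, against 1.60 to 1.64% in GFP libraries. Of the 26 members that were higher on knock-down, 13 were also higher on overexpression, 0 were lower and 13 were not called, so no gene of these 26 had opposite calls in the 2 comparisons. Of the 8 members that were lower on knock-down, 5 did have opposite calls, being higher on overexpression (Ldhb, Pdk2, Pygb, Taldo1 and Tkt), and 3 were not called. Calls of 8 of these 23 members were lost under at least 1 other setting.

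Aldoa had 3429, 3234 and 3597 CPM in Dnmt3a libraries, against 2727, 2780 and 2768 CPM in GFP libraries (log2 fold change 0.31, standard error 0.035, adjusted p = 9.68e-09, edgeR quasi-likelihood, Benjamini-Hochberg adjusted). Taldo1 had 243, 265 and 264 CPM, against 208, 212 and 202 CPM (0.31), and Pfkfb1 had 33.0, 32.5 and 35.5 CPM, against 26.0, 28.1 and 27.0 CPM (0.32). These groups did not overlap. Ldha had 2514, 2410 and 2392 CPM, against 2126, 2153 and 2120 CPM (0.20). Pgk1 had 1866, 1839 and 1856 CPM in Dnmt3a libraries, against 1617, 1593 and 1586 CPM in GFP libraries (0.22), and Ugp2 had 398, 392 and 385 CPM, against 325, 349 and 331 CPM (0.23). Pdk2 had 40.9, 36.6 and 37.7 CPM, against 33.3, 31.9 and 29.6 CPM (0.28). For these genes too the groups did not overlap.

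All 4 genes of glucose entry were not called on overexpression. Hk2, the one among them with the smallest p, had 346, 340 and 342 CPM in Dnmt3a libraries, against 375, 353 and 352 CPM in GFP libraries (log2 fold change -0.07, adjusted p = 0.185, same edgeR test). The 2 members that fell did so by little: Pfkfb3 had 52.2, 49.1 and 46.5 CPM, against 59.2, 54.9 and 52.3 CPM (-0.17), and Pgm1, named Pgm2 by current RefSeq, had 19.2, 17.3 and 18.2 CPM, against 21.7, 19.7 and 21.0 CPM (-0.18). Neither gene overlapped between the groups. The count of 2 fell to 0 without GFP replicate 1 or without Dnmt3a replicate 3, and to 1 without GFP replicate 3 or Dnmt3a replicate 2. Among genes of glycogen, Pygl was higher by 0.36, at 6.93 to 8.11 CPM in Dnmt3a libraries, against 4.89 to 6.78 CPM in GFP libraries, and Gyg by 0.19. Ldhb, which was lower on knock-down, was higher on overexpression by 0.17, Pygb by 0.15 and Tkt by 0.18.

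The 2 changes were set against each other in the fit of all 12 libraries, as the log2 fold change on knock-down minus that on overexpression. The difference passed the test as positive for 23 members and as negative for 8, and was not called for 13; of all genes tested, 19.9% were called positive and 20.4% negative. It was 2.13 for Eno2, 1.65 for Slc2a1, 1.56 for Ppp1r3c and 1.33 for Pgk1. It was -0.75 for Ldhb, -0.58 for Taldo1 and -0.53 for Tkt, and for Aldoa it was 0.06, which was not called.

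Isozymes of 1 family were compared by their share of the family's level per kilobase, using the length deposited with each feature. Ldha made up 87.8 ± 0.109% of Ldha and Ldhb in shDnmt3a, 68.2 ± 0.369% in shScr, 88.5 ± 0.2% in Dnmt3a and 88.3 ± 0.22% in GFP libraries (SD, n = 3 each). Pdk1 made up 61.5 ± 1.19% of the 4 kinases in shDnmt3a, 47.3 ± 1.54% in shScr, 62.9 ± 0.818% in Dnmt3a and 61.1 ± 0.852% in GFP libraries. For both, the shScr libraries stood apart and the other groups were close together. Hk2 made up 82.1 ± 0.349% of Hk1 and Hk2 in shDnmt3a, against 76.5 ± 1.06% in shScr libraries, and Pfkl 81.1 ± 0.16% of phosphofructokinase, against 75.1 ± 0.483%. In Dnmt3a and GFP libraries these shares were 81.5 and 81.8% for Hk2, and 81.2 and 80.5% for Pfkl.

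The shares of shDnmt3a and shScr libraries did not overlap for any of these 4 genes, for which the exact permutation test (two-sided) gave p = 0.1, the smallest that 3 against 3 libraries allow. Eno2 made up 67.2 ± 2.62% of Eno2 and Eno3 in shDnmt3a, 31.1 ± 2.43% in shScr, 49.6 ± 3.6% in Dnmt3a and 51.6 ± 1.9% in GFP libraries, with the Dnmt3a and GFP means between those of the hairpin groups. Both are rare enolases, and the main enolase is not in this share. On overexpression Pfkfb1 took 41.9 ± 1.16% of the PFK-2 family, against 36.6 ± 1.37% in GFP libraries (exact permutation p = 0.1), whereas the share of Ldha differed by 0.195 percentage points (exact permutation p = 0.5).

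**Figure D4:**
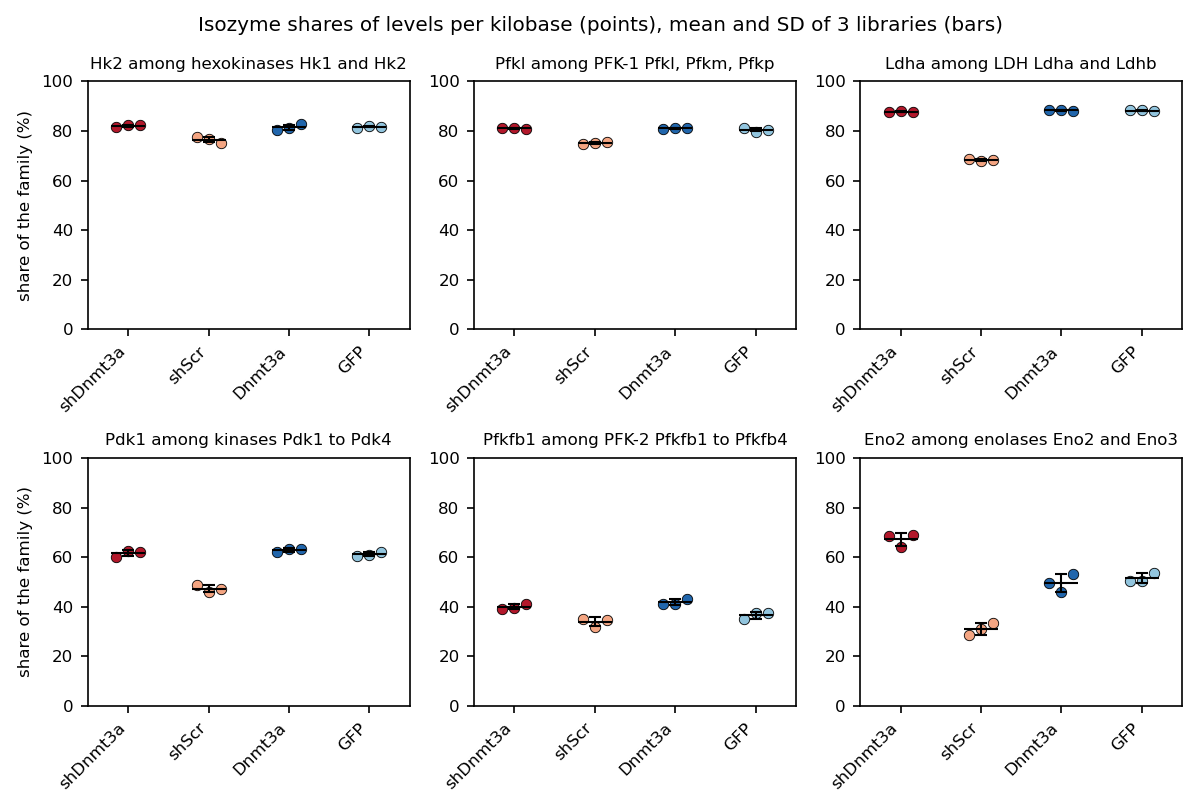
Share of 1 isozyme in the summed level per kilobase of its family (percent), for every library (points), with the mean and SD of each group (bars). The Ldha share was 68.2% in shScr libraries and between 87.8 and 88.5% in the other groups; the Pdk1 share was 47.3% in shScr and between 61.1 and 62.9% in the others.

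Levels of different genes were compared per kilobase, as CPM divided by the feature's length in kilobases. In GFP libraries Aldoa was highest at 1512 ± 15.2 (SD, n = 3), followed by Ldha at 1105 ± 9.03, Pgk1 at 888 ± 8.94, Pgam1 at 668 ± 5.89 and Pkm2 at 606 ± 21.0. Next came Gpi1 at 184 ± 6.31. Neighbours further down lay within their spread: Taldo1 had 163 ± 4.12 and Pfkl 157 ± 9.29, Ldhb 147 ± 2.19 and Tkt 146 ± 3.19, and Pdk1 66.0 ± 0.262, Hk2 65.3 ± 2.41 and Slc2a1 64.7 ± 2.4. Gapdh had 84.1 ± 0.942, far under the enzymes next to it in the pathway. The other 2 Gapdh features, each under 3% of its counts, do not add to it, and how reads that match copies of a gene were counted was not tested. The 4 lowest were Aldoc, Pygm, Pfkm and Slc2a3, at 0.143 to 0.286. In shDnmt3a libraries Pgk1 had 1475 ± 20.7 and Ldha 1453 ± 18.2, with overlapping libraries.

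Of all genes tested, 23.3% were higher and 22.5% lower on knock-down, and 14.3% and 12.9% on overexpression. Of other genes of glucose handling, 53 passed the filter, of which 13 were higher and 19 lower on knock-down. Their median log2 fold change was -0.0443. On overexpression 19 were higher and 6 lower, with a median of 0.0814, so that, as for the members, most calls were upward. By smallest p on knock-down these were Gpd1, cytosolic glycerol phosphate dehydrogenase, which fell to 2082 to 2151 CPM in shDnmt3a libraries, against 3199 to 3300 CPM in shScr libraries (-0.63). Ugdh, which oxidises UDP-glucose, rose by 0.66, and Pdha1, a subunit of pyruvate dehydrogenase, fell by 0.53. Slc2a4, which encodes the insulin-responsive GLUT4 and was picked out after its values were seen, was not called on knock-down, at 234 to 239 CPM in shDnmt3a libraries, against 241 to 244 CPM in shScr libraries.

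Low-oxygen targets outside glucose metabolism moved with the members. All 21 that were measured were higher on knock-down, against 23.3% of all genes tested, with a median log2 fold change of 1.16. The list was chosen with earlier results of these data known, so this count is a description and not an independent test. They summed to 6252 to 6273 CPM in shDnmt3a and 2791 to 2829 CPM in shScr libraries. In Dnmt3a libraries the sums were 4950 to 5073 CPM, and in GFP libraries 4604 to 4709 CPM. In shScr against GFP 17 of the 21 were lower and 1 higher (median -0.64), where 22.8% of all genes tested were lower and 23.7% higher. In shDnmt3a against GFP 20 of the 21 were higher and 0 lower (median 0.632), where 23.6% of all genes tested were higher and 22.8% lower. By smallest p on knock-down these were Egln3, a prolyl hydroxylase that marks HIF for destruction, at 2.29, P4ha2, a collagen prolyl hydroxylase, at 1.83, and Lox, which cross-links collagen, at 1.64. On overexpression 7 were higher and 3 lower of the 20 tested, where 14.3% of all genes tested were higher and 12.9% lower. The oxygen sensing genes and HIF subunits changed less on knock-down, where of 7, Hif1a (0.25) and Vhl (0.44) were higher and Egln2 was lower (-0.21). On overexpression 3 of the 7 were lower and none was higher, with a median log2 fold change of -0.142 and a lowest value of -1.07. For the low-oxygen targets these values were 0.052 and -0.774. The part of these genes in the members' changes was not tested.

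Markers of cell types were counted beside these results, where 23.3% of all genes tested were higher and 22.5% lower on knock-down. On overexpression these shares were 14.3% and 12.9%. On overexpression all 12 adipocyte markers were higher, and they summed to 29570 to 29980 CPM in Dnmt3a libraries, against 23910 to 24920 CPM in GFP libraries. On knock-down 3 were higher and 5 lower, with sums of 19530 to 19850 CPM in shDnmt3a libraries, against 20100 to 20540 CPM in shScr libraries. Their log2 fold changes on knock-down ran from -1.25 to 0.198. In shDnmt3a against GFP 2 of the 12 were higher and 8 lower, with a median of -0.276. Of all genes tested in that comparison, 23.6% were higher and 22.8% lower. Of 11 preadipocyte and fibroblast markers 4 were higher and 4 lower on knock-down, with sums of 15260 to 15880 CPM in shDnmt3a, against 10610 to 11660 CPM in shScr libraries. Most of this sum was Col3a1, a fibrillar collagen, at 11550 to 11650 CPM in shDnmt3a libraries, against 7404 to 7901 CPM in shScr libraries. Pdgfra, Pdgfrb, Thy1 and Ly6a were lower, and the other markers that were higher are not named here. Log2 fold changes in the list ran from -1.35 to 0.612. On overexpression 1 of these markers was higher and 5 lower. The sums of macrophage and leukocyte markers were 27.7 to 29.1 CPM in shDnmt3a, against 30.2 to 31.8 CPM in shScr libraries, and those of skeletal muscle markers 10.2 to 11.1 CPM, against 10.8 to 11.3 CPM. The part of these markers in the members' changes was not tested.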

How the data were processed

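RNA-seq was analysed for 12 libraries, 3 in each of 4 groups taken from the labels; no column was left without a sample. The authors removed ribosomal RNA with Ribo-Zero, made TruSeq libraries, aligned reads to mm9 with TopHat2 (2.0.14) and counted them with featureCounts (1.4.6), having edited the annotation so that genes overlap less. Picard (2.2.4), SAMtools (0.1.19) and bcl2fastq (2.17.1.14) are named in the submitters' processing notes. The deposited values are whole-number counts, not normalized. Strand setting: not given in the sources used here.

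Counts were tested with edgeR 4.0.16 (R 4.3.3) by its quasi-likelihood test, with TMM scaling, edgeR's default filter (minimum count 10) and Benjamini-Hochberg adjustment over all genes tested, on the 6 libraries of each comparison. Comparisons with GFP of hairpin groups, and the difference of the 2 changes, used 1 fit of all 12 libraries. CPM of single libraries are scaled over all 12. Isozyme shares were tested by an exact permutation test. The procedure was tested on simulated data. DESeq2 (1.42.0) was an alternative. Any member could be named; values in every library are given, by role, for the 3 members with the smallest p on knock-down, the 1 on overexpression and those called against their role, and other members by range or fold change. Of the other lists, the 3 genes with the smallest p on knock-down are named; Gm5506, Slc2a4 and the cell type markers named were picked out after their values were seen. Members and lists were chosen with earlier results of these data known. Promoters are from RefSeq (GRCm38.p6), matched by symbol or synonym for 42 of 44 members.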

Additional observations from a re-analysis of the deposited data

How the results depend on the processing

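The counts of members called on knock-down, 26 higher and 8 lower, were 25 to 26 and 7 to 8 under RLE size factors, DESeq2, a filter of 1 CPM in 3 libraries, no filter, summed features, 1 fit over 12 libraries, an adjusted p under 0.01 and the omission of each library. On overexpression, the 2 members called lower were 1 with DESeq2 and 1 at an adjusted p under 0.01, and 0 to 2 when each library was left out in turn. All genes called lower on overexpression were 1143 at an adjusted p under 0.01, against 1826 at 0.05. The 3 members called lower in shDnmt3a against GFP were 1 at an adjusted p under 0.01 and 1 to 3 when each library was left out.

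Of 23 members called on overexpression 8 lost the call under at least 1 alternative (Gapdh, Gpi1, Gyg, Pfkfb3, Pfkl, Pgls, Pgm1 and Pygl), and on knock-down 1 of 34 did (Pdk2). No call turned its direction. The cause of these losses was not tested, except that fewer libraries were fitted where 1 was left out.

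Replicate numbers showed no sign of pairing the samples. This was judged from log2 CPM with each gene's group mean subtracted, correlated between the groups of a comparison. These correlations ran from -0.0729 to 0.0129 for same-numbered libraries and from -0.049 to 0.0733 for libraries of different numbers. With the replicate block, 26 members were higher and 8 lower on knock-down, and 3092 and 2931 of all genes; on overexpression 21 members were higher and 2 lower.

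Shares of CPM with no length correction gave other differences in percentage points, because features differ in length. On knock-down they were 8.62 for Pfkl, -8.60 for Pfkp, 4.02 for Pfkfb1, -5.51 for Pfkfb2, -0.939 for Pfkfb3, 2.43 for Pfkfb4, 15.3 for Ldha, -15.3 for Ldhb, 10.3 for Pdk1, -7.41 for Pdk2, -2.72 for Pdk4 and -0.126 for Pdk3, whose difference per kilobase was 2.31. On overexpression they were 3.33 for Pfkfb1, 1.46 for Pfkfb4, 0.612 for Pdk2, -1.28 for Pdk3 and -0.104 for Pygm. The 4 rarest members (Slc2a3, Pfkm, Aldoc and Pygm) had standard errors of 0.242 to 0.328 on knock-down, so changes of that size were not detectable in them at this depth.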
